A study of Mus musculus with 2 samples.

Results

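Transcript levels of chaperone, unfolded protein response and ATF4 response genes were compared between a culture with an empty vector and a culture with active MEF2C. Both were M/E cells, a line made from mouse bone marrow with the leukaemia fusion gene MLL/ENL, and their labelled genotype, Mef2c del/-, is the same. Control cells carried the empty retroviral vector MYs-iPAC. The other culture carried MYs-pMef2cASR, a vector for MEF2C-ASR, a constitutively active form of this transcription factor with a mutated histone deacetylase binding site. Both grew in RPMI with 10% FCS, 100 ng/ml SCF and IL3, IL6 and GM-CSF at 10 ng/ml, and after puromycin selection RNA from 3 harvests (6, 24 and 48 h after seeding) was pooled per culture. Each group is therefore 1 pooled RNA on 1 array, with no replicate and no test, and "higher" and "lower" describe these arrays. The genes were 43 symbols listed by name. Of these, 42 had a probe, 3 of them under the older symbols Sel1h (Sel1l), Myd116 (Ppp1r15a) and Hsp110 (Hsph1), and Hspa1b had none under its name. All 42 were measured, that is, they had a probe well above background on both arrays, among 16570 genes so measured.

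Proteins that enter the endoplasmic reticulum (ER) are folded there by chaperones, lectins and disulfide isomerases. When unfolded proteins build up, the membrane sensors IRE1 (gene Ern1), PERK (Eif2ak3) and ATF6 start the unfolded protein response: IRE1 splices Xbp1 mRNA, ATF6 is cut to release a transcription factor, and PERK phosphorylates eIF2alpha, which slows translation in general but favours that of Atf4 mRNA. ATF4 is also reached by amino acid shortage through another eIF2alpha kinase, GCN2, and turns on stress effectors such as CHOP (Ddit3) as well as genes for amino acid synthesis and tRNA charging. Cytosolic chaperones form a separate branch under heat shock factor HSF1. Secretory and fast-growing blood cells are known to depend on these systems.

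The intensity scale was checked first. Signals were divided by each array's 75th percentile (1272 in the control and 1240 with MEF2C-ASR), and 60.1% and 67.5% of 43379 spots were well above background. Signals printed here are those before this division, while differences and folds are those after it. Mef2c had a signal of 795 in the control and 1969 on the MEF2C-ASR array; whether its probe lies in the deleted part was not tested. Haematopoietic and myeloid progenitor markers were well above background for 9 of 9 genes on both arrays, with a summed signal of 147157 in the control and 246216 with MEF2C-ASR. Mpo alone made up 68289 and 143027 of these sums, and all 9 genes had a difference above 0. Spotting error was estimated from 144 probes printed 10 times and well above background on both arrays, as the SD of a difference of single spots. It was 0.22 (log2) for control signals under 300, 0.08 between 300 and 3000 and 0.06 above 3000, and does not cover the variation between cultures or RNA pools.

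The branches are known to act through promoter sites, and windows from 250 bases before to 50 bases after the gene start (RefSeq, GRCm38.p6) were found for 37 of the 43 genes (not Atf6, Hspa8, Hsp90aa1, Hsp90ab1, Ppic and Wars). The ER stress response element, bound by ATF6 with NF-Y, was searched on both strands as CCAAT, any 9 bases, then CCACG. It was found in 6 of 37 genes (16.2%) and in 0.119% of all 32851 windows, and all 6 genes belong to the 10 ER chaperones and folding enzymes with a window. It was not found for Pdia3, Pdia4 and Ppib, also nearly level (log2 differences 0.18, -0.09 and 0.04), nor for Dnajb9 (0.41). The sites of the 6 genes, whose signals were nearly alike on both arrays, are shown with 6 flanking bases each. They are read along the motif, with the fixed letters in capitals. Hsp90b1 had a further site.
Hspa5: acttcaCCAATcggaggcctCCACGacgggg
Hsp90b1: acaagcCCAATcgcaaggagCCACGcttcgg
Calr: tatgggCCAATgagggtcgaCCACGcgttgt
Canx: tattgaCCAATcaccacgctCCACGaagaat
Pdia6: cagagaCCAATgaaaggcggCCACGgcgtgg
Dnajc3: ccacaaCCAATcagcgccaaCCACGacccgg
The Hspa5 site lies at chr2:34772019-34772049 on the plus strand of GRCm38.p6 and its motif begins 65 bases before the gene start.

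The element bound by ATF4 with C/EBP factors was searched as TGATGNAA on both strands and found in 6 of 37 genes (16.2%), Herpud1, Atf3, Trib3, Chac1, Asns and Aars, against 3.97% of all windows. The sites of genes near and far from 0 in the comparison are shown, with the fixed letters in capitals.
Atf3: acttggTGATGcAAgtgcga
Chac1: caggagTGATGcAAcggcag
Trib3: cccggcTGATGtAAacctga
Asns: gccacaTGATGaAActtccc
The Atf3 site lies at chr1:191183430-191183449 on the plus strand, while the gene is on the minus strand. The motif edge farthest from the gene start lies 110 bases before that start. Herpud1 held, beside this element, a second kind of ER stress site, searched as ATTGG, any 1 base, then CCACG, and present in 0.0365% of all windows. The unfolded protein response element TGACGTGG was in 0 of 37 genes (0.676% of all windows), and the MEF2 site (CTA, then AAAA or TAAA, then TAG) in 0 of 37 (0.274%), which says only that these letters are not in these windows.

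The heat shock element was searched as GAA, TTC and GAA with 2 bases between each, on both strands, and found in Hsph1, Hspd1 and Hspe1 (3 of 37, 8.11%, against 0.603% of all windows). It was not found for Hspa1a, Hspa1b and Dnajb1, which says only that these exact letters are not in their windows. Hspd1 and Hspe1 are divergent neighbours on chromosome 1, and an Hspd1 window shares 285 bases with that of Hspe1, so both rest on the same element. The Hspe1 window (chr1:55087898-55088197, plus strand, GRCm38.p6) is shown because this pair was lower together, with the overlapping elements in capitals. The Hspa2 window (chr12:76404120-76404419, plus strand) is shown because Hspa2 was among the members farthest from 0, and it held none of the letters searched.
Hspe1: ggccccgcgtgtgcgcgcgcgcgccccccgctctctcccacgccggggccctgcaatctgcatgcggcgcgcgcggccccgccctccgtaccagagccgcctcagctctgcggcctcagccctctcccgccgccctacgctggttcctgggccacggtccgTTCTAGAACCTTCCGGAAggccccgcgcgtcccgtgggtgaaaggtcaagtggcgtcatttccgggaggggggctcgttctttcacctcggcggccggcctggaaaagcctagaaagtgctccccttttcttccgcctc
Hspa2: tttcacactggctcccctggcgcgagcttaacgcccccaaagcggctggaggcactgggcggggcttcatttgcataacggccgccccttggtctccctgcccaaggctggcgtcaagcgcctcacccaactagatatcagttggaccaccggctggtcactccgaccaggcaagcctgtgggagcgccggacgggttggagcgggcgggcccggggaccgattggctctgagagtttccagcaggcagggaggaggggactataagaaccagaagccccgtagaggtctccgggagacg

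Most of the 42 genes had similar signals in both cultures, and the departures ran in opposite directions in different branches. Stress effectors downstream of ATF4, the sensors Ern1 and Eif2ak3 and the transcription factor Xbp1 were on the higher side with MEF2C-ASR. The sensor Atf6 was at 0.00, while cytosolic and mitochondrial chaperones and most amino acid enzymes were on the lower side. In further gene lists the higher side was not shared. Other ATF4 targets had 7 of 19 measured genes above 0 (median -0.12). Other regulators of the unfolded protein response and of eIF2 had 6 of 15 above 0 (median -0.02). A single gene, Atf3, was at least 1.5-fold higher (1 of 42, 2.38%; 4.46% of all measured genes). Ppic, Hspa2 and Hspa1a were at least 1.5-fold lower (3 of 42, 7.14%; 5.03% of all measured genes), so both shares are near the background. At least 2-fold, the counts were 0 higher (background 1.74%) and 2 lower, Ppic and Hspa2 (4.76%; background 1.91%). Large differences were rarer among brighter genes: of the 8285 genes at or above the median level 3.46% were at least 1.5-fold higher and 1.5% lower, and 1.13% at least 2-fold higher and 0.362% lower. Of the 36 members in that range, 0 were at least 1.5-fold higher and 2 (5.56%), again Ppic and Hspa2, lower. The median difference of the 42 was -0.05 on the log2 scale, against -0.03 for all measured genes, and 28 of 42 (66.7%) were within 1.2-fold, against 68.2% of all measured genes.

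**Figure D1:**
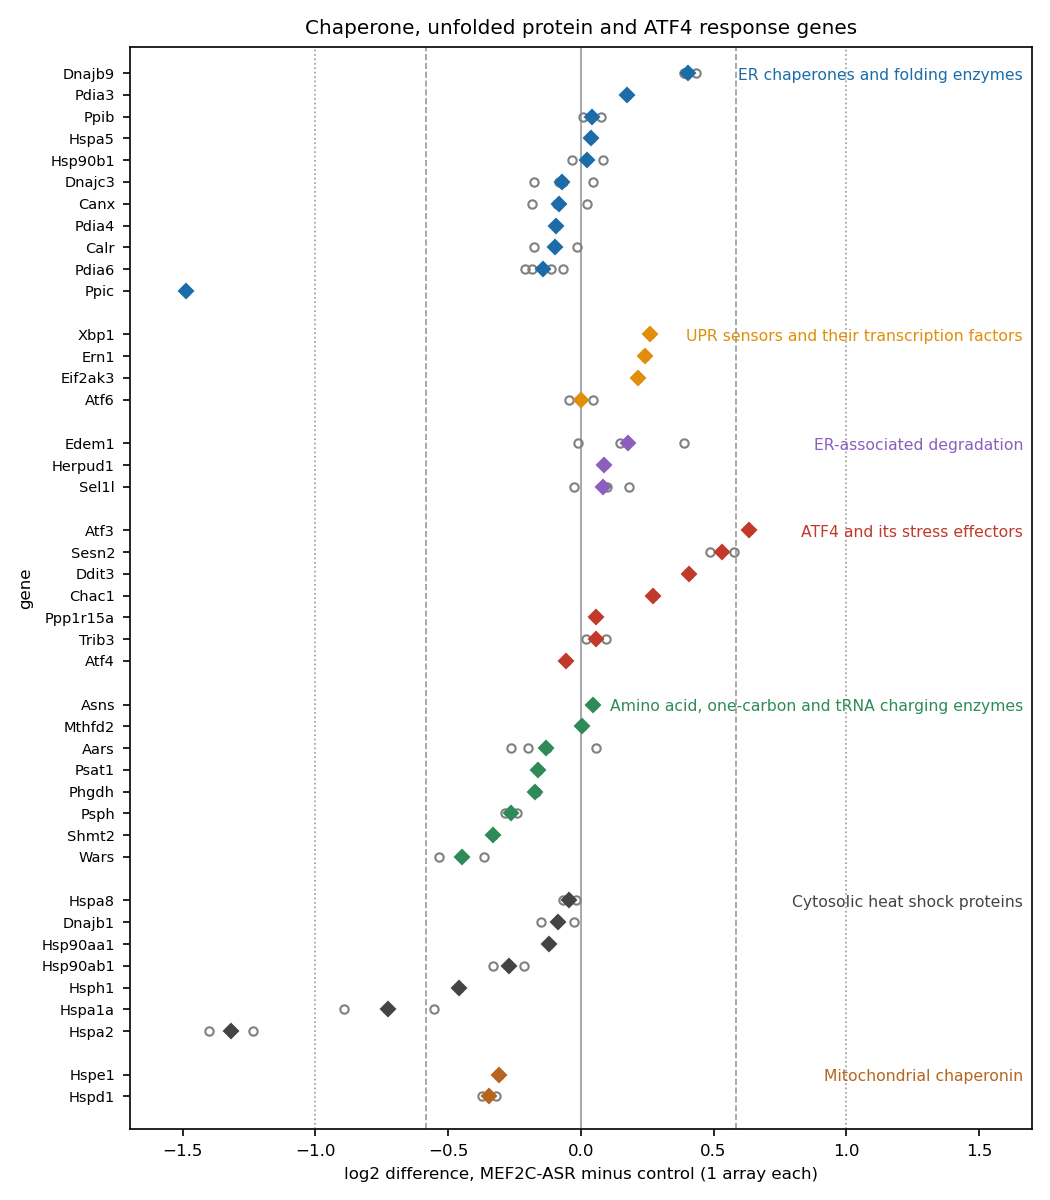
Log2 difference (MEF2C-ASR minus control, 1 array each) of the 42 measured genes by role; diamonds are gene means, open circles single probes, dashed lines 1.5-fold and dotted lines 2-fold. Ppic (-1.49), Hspa2 (-1.32) and Hspa1a (-0.72) lie left of the lower dashed line and Atf3 (0.64) right of the upper.

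**Figure D2:**
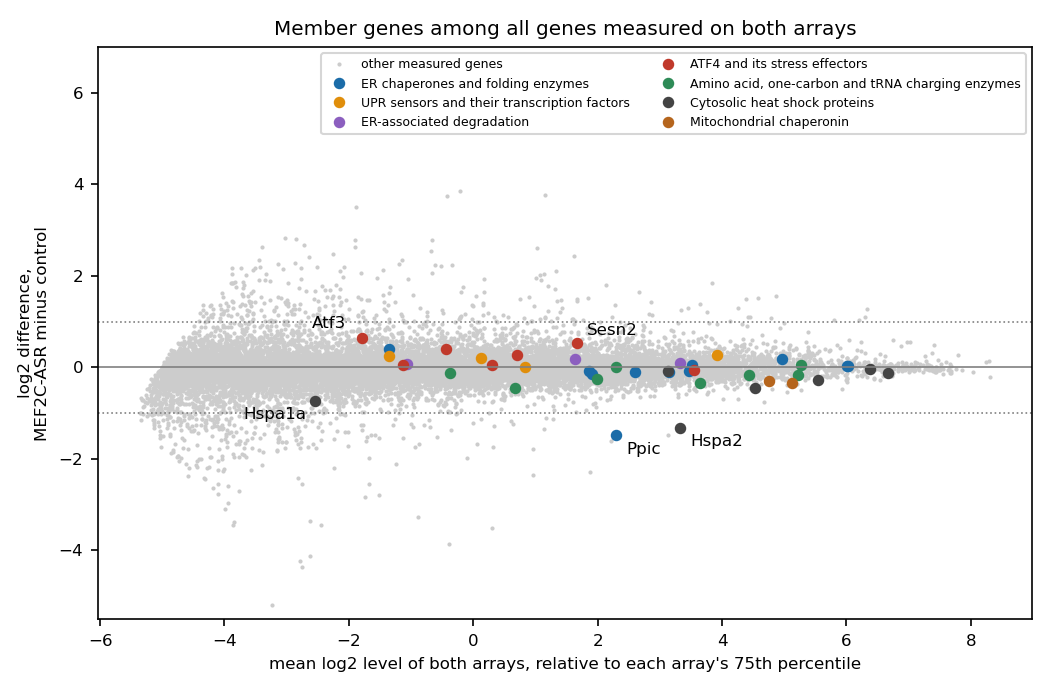
Log2 difference (MEF2C-ASR minus control) against the mean log2 level of both arrays for all 16570 measured genes (grey) and the 42 members (coloured by role); dotted lines mark 2-fold. Ppic and Hspa2 lie below the lower line among genes of high level, while the other members stay between the lines.

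Scaling matters for differences of this size. Spike-in scaling, which sets added control transcripts equal, moved the median of all genes from -0.03 to -0.17, and with it every difference fell by 0.14. Over the 5 alternative scalings, spike-in scaling included, 32 of the 42 genes kept their sign, and 10 close to 0 did not: Hspa5, Hsp90b1, Ppib, Atf6, Herpud1, Sel1l, Trib3, Ppp1r15a, Asns and Mthfd2. Relative to the median of all genes, 22 of the 42 were lower under each of these scalings (14 with all probes kept, dim ones included). Counts above and below 0 are to be read against all measured genes, of which 55.2% were below 0 (51.8% of those at or above the median level).

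The ER chaperones and folding enzymes were nearly alike on both arrays, except for Ppic and Dnajb9. The signal of Hspa5, which encodes the main ER chaperone BiP, was 82034 in the control and 82143 with MEF2C-ASR. The arrays were level, with a difference of 0.04 (-0.10 with spike-in scaling). Hsp90b1, the ER form of HSP90 (GRP94), differed by 0.02 (-0.12 with spike-in scaling). The lectin chaperones Calr and Canx, which hold glycoproteins during folding, differed by -0.10 and -0.08, and 1 of the 3 Canx probes lay above 0 (0.02). Of the disulfide isomerases, Pdia3 differed by 0.18, Pdia4 by -0.09 and Pdia6 by -0.14, the last with all 4 probes below 0. The brightest Pdia6 spot carries a background-outlier flag. Dnajc3, an inhibitor of PERK and co-chaperone, differed by -0.07, with its 4 probes between -0.17 and 0.05. The prolyl isomerase Ppib (cyclophilin B) differed by 0.04, below 0 with spike-in scaling and with quantile normalization.

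Ppic, the related prolyl isomerase cyclophilin C, had a signal of 10489 in the control and 3648 with MEF2C-ASR. The control signal was the higher by 2.80-fold (log2 difference -1.49), the 129th lowest difference of 16570 genes. This rests on a single probe, and ranged from -1.63 to -1.47 over all processing settings. Dnajb9 (ERdj4), a BiP co-chaperone, differed the other way. Its 3 probes had signals of 328, 359 and 698 in the control and 418, 460 and 920 with MEF2C-ASR. Each probe was higher with MEF2C-ASR, with differences between 0.39 and 0.43 and a mean of 0.41, which is below 1.5-fold. Over the 11 genes the median was -0.07, with 5 above 0 and 6 below.

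Among 20 further ER folding genes in a fixed list, all measured, 0 were past 1.5-fold, 6 lay above 0 and 14 below, with a median of -0.11. Sec61b, a translocon subunit, differed by -0.04 and the thioredoxin family member Erp29 by -0.13. Pdia5 (-0.52) and Txndc5 (-0.54), both disulfide isomerase family members, and the ER oxidase gene Ero1b (0.50) were the farthest from 0, named after their values were seen.

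The sensors and Xbp1 differed little, on the higher side for 3 of 4 genes. Ern1 had a signal of 459 in the control and 529 with MEF2C-ASR, a difference of 0.24. Eif2ak3 had 1283 and 1452, a difference of 0.22. These 2 kinases were thus slightly brighter with MEF2C-ASR, by 0.10 and 0.074 with spike-in scaling, where the spotting error in their signal range is 0.077 and the spread between cultures is unknown. Xbp1, the transcription factor whose mRNA IRE1 splices, had a signal of 17564 in the control and 20534 with MEF2C-ASR, a difference of 0.26 from 1 probe. The spot carries a background-outlier flag, and whether the probe separates spliced from unspliced mRNA was not tested. Atf6 differed by 0.00, and its probes by -0.04 and 0.05. The median of the 4 genes was 0.23 (0.09 with spike-in scaling).

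Of 15 further regulators of the unfolded protein response and of eIF2, all measured, 0 were past 1.5-fold, with 6 above 0, 9 below (60%, near the 55.2% of all measured genes) and a median of -0.02. Eif2s1, which encodes eIF2alpha itself, differed by -0.07, and Eif2b1, a subunit of its exchange factor eIF2B, by -0.34. The eIF2 kinases other than PERK differed by 0.28 (Eif2ak1), -0.01 (Eif2ak2, PKR) and -0.33 (Eif2ak4, GCN2), named after their values were seen.

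ER-associated degradation, by which misfolded proteins are drawn out of the ER and destroyed, showed small differences. Edem1, which picks out misfolded glycoproteins, had 3 probes with signals of 534, 8756 and 10934 in the control and 683, 8477 and 11823 with MEF2C-ASR. These probes did not share a sign (-0.01 to 0.39, mean 0.18). Herpud1, a stress-induced part of the degradation complex, had a signal of 12426 in the control and 12881 with MEF2C-ASR. Sel1l, its adaptor, differed by 0.08, with 3 probes between -0.03 and 0.18. Herpud1 (0.09) and Sel1l were thus above 0 here, but below it with spike-in scaling (-0.05 and -0.06). In a fixed list of 14 other genes of this pathway, all measured, 10 lay above 0 and 4 below, the median was 0.08 and 0 were past 1.5-fold. Vcp, the ATPase that extracts the proteins, differed by -0.11 and Selenos by 0.14.

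The effectors of the ATF4 arm were on the higher side, Trib3 and Ppp1r15a only slightly, while Atf4 itself was not higher. Atf4 had a signal of 15135 in the control and 14184 with MEF2C-ASR, a difference of -0.06. Its 1 probe was thus slightly dimmer with MEF2C-ASR, by about the size of the spotting error for signals above 3000 (0.06). ATF4 is mainly controlled through translation, which the array does not measure. Atf3, a stress-induced repressor and activator of the same bZIP family, had signals of 294 and 446. The MEF2C-ASR array was the brighter by 1.55-fold (0.64), from 1 probe at chromosome 1, 190724174 to 190724233, in the file's own coordinates (build not stated). With spike-in scaling (0.49) or normexp background correction (0.51) the gene did not reach 1.5-fold, and spotting error in this signal range was 0.22.

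Sesn2 (sestrin 2), an inhibitor of mTORC1 signalling under stress, had 2 probes with signals of 1394 and 8064 in the control and 1905 and 11739 with MEF2C-ASR. Both probes were higher with MEF2C-ASR, by 0.49 and by 0.58, a mean of 0.53 or 1.45-fold. Ddit3, which encodes the pro-apoptotic factor CHOP, had signals of 816 and 1055 (0.41, 1 probe). Chac1, an enzyme that breaks down glutathione and a CHOP-ATF4 target, had 1890 and 2228 (0.27, 1 probe). All 3 genes were brighter with MEF2C-ASR under each processing setting, yet none reached 1.5-fold. Trib3, a pseudokinase that feeds back on ATF4, and Ppp1r15a (GADD34), which restores translation by dephosphorylating eIF2alpha, both differed by 0.06 and were below 0 with spike-in scaling (-0.08 for each). Over the 7 genes the median was 0.27 (0.13 with spike-in scaling), with 6 above 0.

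Macrophage markers were higher on the MEF2C-ASR array too: 4 of 5 were well above background on both arrays and their summed signal was 5191 in the control and 9874 with MEF2C-ASR, while Mrc1 was not well above background on either. Csf1r is in this list and in that of the progenitors. Plasma cells, a type with a strong unfolded protein response, had 2 of 5 markers above background on both arrays (summed signal 4143 and 2826). These 2 went opposite ways: Ighm, which makes up nearly all of the sum, was lower (-0.58) and Sdc1 was higher at low signals of 42.7 and 90.3 (1.11). The defining markers Prdm1, Jchain and Tnfrsf17 were not well above background on either. The part of other cell states in the differences was not tested, and in these bulk samples fewer cells of a type and less RNA per cell cannot be told apart.

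Other ATF4 targets from a fixed list of 20 did not share a direction: of 19 measured, 7 lay above 0 and 12 below, with a median of -0.12. At least 1.5-fold higher were Slc7a11, the cystine transporter, and Jdp2, a bZIP repressor. Slc7a11 had mean signals of 168 and 341 (2.15-fold) and Jdp2 had 5953 and 9693 (0.74). At least 1.5-fold lower were Aldh1l2, a mitochondrial folate enzyme (signals 102 and 43.8, -1.32), Cth, which makes cysteine (318 and 137, -1.18), and Pycr1, which makes proline (688 and 342, -0.97). Jdp2, Cth and Pycr1 rest on 1 probe each, and the 2 Aldh1l2 probes, at low signals, differed by -1.76 and -0.88. Jdp2 is the smallest of these 5 differences and was named after its value was seen. Ddit4 (0.58), another inhibitor of mTORC1, was just below 1.5-fold on the higher side. The amino acid transporters Slc7a5 (-0.31) and Slc3a2 (-0.12), which together form the leucine carrier, were slightly lower; these 3 genes too were named after their values were seen.

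**Figure D3:**
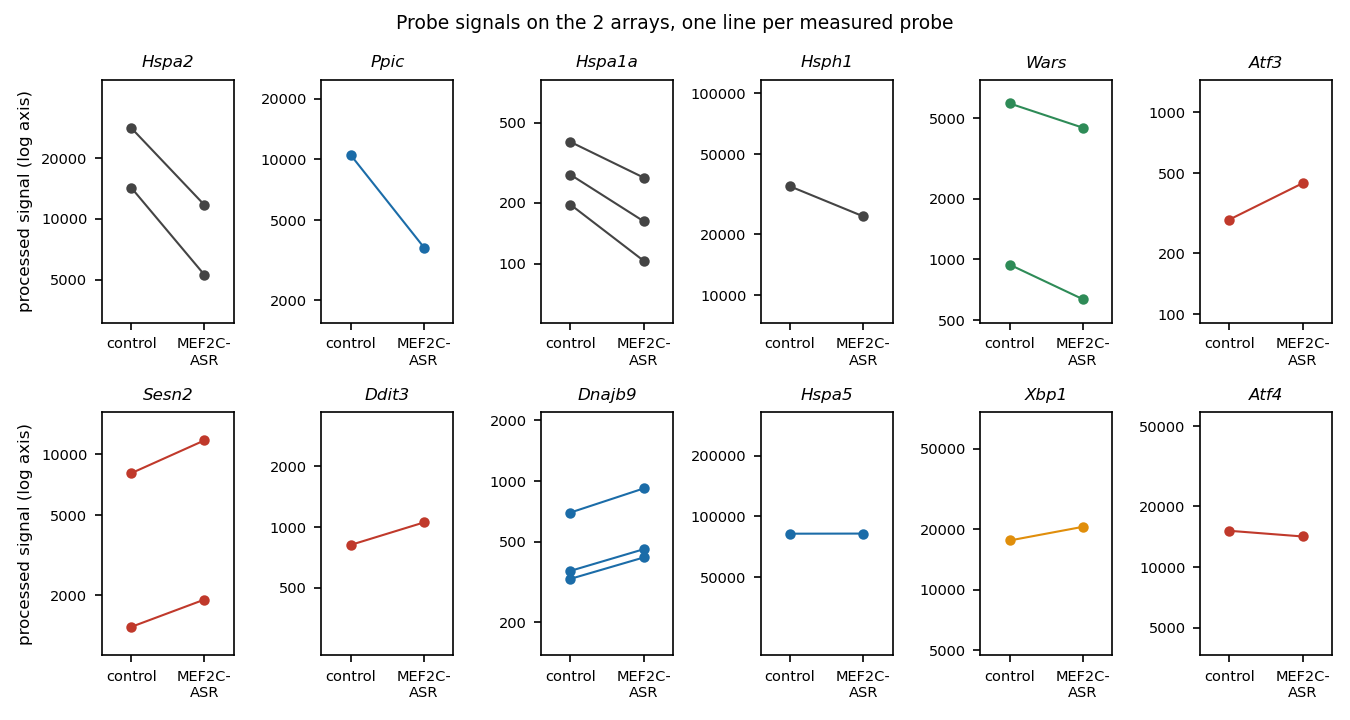
Processed signals (log axis) of every measured probe on the control and MEF2C-ASR arrays for 12 members; each line is a probe and each panel has its own range. The 2 Hspa2 probes, the 3 Hspa1a probes and the Ppic probe slope downward, those of Atf3, Sesn2, Ddit3 and Dnajb9 slope upward, and Hspa5 is level (82034 and 82143).

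The enzymes of serine, folate and asparagine synthesis and of tRNA charging were on the lower side for 6 of 8 genes, by less than 1.5-fold each. Phgdh, which opens serine synthesis from a glycolytic intermediate, had 3 probes with signals of 28252, 53927 and 83155 in the control and 24511, 46773 and 71804 with MEF2C-ASR. All 3 probes were lower with MEF2C-ASR, by nearly the same amount (between -0.18 and -0.17). Those with control signals of 53927 and 83155 overlap in position and are not separate readings of the transcript. The next enzymes of the pathway followed it, with -0.16 for Psat1 and -0.26 for Psph (2 probes that overlap in position, -0.29 and -0.24). Shmt2, which passes the serine carbon to folate in mitochondria, had signals of 17784 and 13776. It was thus lower with MEF2C-ASR (-0.33), whereas Mthfd2, the next folate enzyme, had 6207 and 6069, a difference of 0.00. Asns, the asparagine synthetase and a classical ATF4 target, had 48126 and 48412 (0.04). Asns and Mthfd2 were near 0 and below it with spike-in scaling (-0.10 and -0.14).

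Of the tRNA charging enzymes, Wars (tryptophan) had 2 probes with signals of 941 and 5933 in the control and 634 and 4495 with MEF2C-ASR. Both were lower with MEF2C-ASR, with a mean of -0.45, which passed 1.5-fold with spike-in scaling (-0.59). Aars (alanine) differed by -0.13 over 4 measured probes that ranged from -0.26 to 0.06. Another Aars probe was below the background limit on both arrays; including it gave a mean of 0.16. The group's median was -0.17. Among 18 further aminoacyl tRNA synthetases, all measured, 3 lay above 0 and 15 below (median -0.10), with 0 past 1.5-fold, Kars at -0.11 and Sars at 0.12. Of 10 further serine and folate enzymes 7 were measured, of which 1 lay above 0 and 6 below (median -0.26), with 0 past 1.5-fold, and Mthfd1l (-0.26) and Tyms (-0.08) as examples. Across members and both lists 25 of 33 measured genes were below the median of all genes. By definition 50% of all measured genes were below it, and 46.1% of those at or above the median level. Members and lists were chosen with earlier results of these data known, and no test was made.

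The cytosolic heat shock proteins were below 0 for 7 of 7 measured genes, against 55.2% of all measured genes, and Hspa2 and Hspa1a were past 1.5-fold. Under each scaling 7 of 7 were also below the median of all genes, which takes out the shift of the whole array. This count was 6 with normexp, where Hspa8 lay above that median, and 5 with all probes kept or with the brightest probe, where Hspa8 and Dnajb1 did. With spike-in scaling 75.4% of all measured genes were below 0. Hspa2, an HSP70 best known for its role in male germ cells, had 2 probes on chromosome 12 (74364402 to 74364461 and 74364884 to 74364943, in the file's own coordinates, build not stated). Their signals were 14308 and 28299 in the control and 5278 and 11723 with MEF2C-ASR. Both probes were lower with MEF2C-ASR, by -1.40 and -1.24, and the mean of -1.32 is 2.49-fold. It was the 174th lowest difference of 16570 genes. The first of these spots carries a background-outlier flag, and without such spots the value was -1.24. Over all settings it ranged from -1.46 to -1.24.

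Hspa1a, the classical stress-induced HSP70, was dim in both cultures. Its 3 measured probes had signals of 196, 276 and 401 in the control and 103, 162 and 267 with MEF2C-ASR. Those with control signals of 276 and 401 overlap in position. Each probe was lower with MEF2C-ASR, by between -0.89 and -0.55 (mean -0.72, 1.65-fold), where spotting error was 0.22 for a single spot. The difference was below 1.5-fold with the brightest probe alone (-0.55) and with normexp (-0.57), and another probe was below the background limit on both arrays. The dimmest of the 3 probes (196 and 103) carries a background-outlier flag. Hspa1b is a nearly identical neighbouring copy, so these probes cannot be assigned to Hspa1a with certainty.

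Hsph1 (HSP110), a nucleotide exchange factor for HSP70, had a signal of 34620 in the control and 24562 with MEF2C-ASR. It was lower with MEF2C-ASR by -0.46 (1 probe), or 1.37-fold, and passed 1.5-fold with spike-in scaling (-0.60). The inducible cytosolic HSP90 gene Hsp90aa1 had signals of 134826 and 121135 (-0.12), and the constitutive Hsp90ab1 differed by -0.27. Dnajb1, the HSP40 co-chaperone induced with HSP70, differed by -0.09. Hspa8, the constitutive HSP70, differed by -0.04, but the file places both of its probes on chromosome 5 while RefSeq (GRCm38.p6) lists the gene on chromosome 9, so their assignment is uncertain. The brighter spot of Hsp90ab1 and that of Hspa8 carry a background-outlier flag. The median of the 7 genes was -0.27.

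The mitochondrial chaperonin genes Hspd1 (HSP60) and Hspe1 (HSP10), which share the promoter shown above and build a joint folding chamber, were lower by nearly the same amount. Hspd1 had 2 probes with signals of 22671 and 110974 in the control and 17085 and 86684 with MEF2C-ASR. The brighter of these spots carries a background-outlier flag. Hspe1 had signals of 38191 and 30121. All 3 probes were lower with MEF2C-ASR, and the genes differed by -0.35 and -0.31, or 1.27-fold and 1.24-fold.

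Further chaperones outside the ER were mostly below 0, by small amounts, as were the further ER folding genes (14 of 20). Of 39 other cytosolic chaperones and heat shock regulators 37 were measured, with 8 above 0, 29 below and a median of -0.14. Hspb1, a small heat shock protein, was the single gene past 1.5-fold and was higher, at low signals of 51.1 and 81.4 (0.71). Hsf1, the heat shock factor, differed by -0.20, and the 8 chaperonin subunit genes (Tcp1, Cct2 to Cct5, Cct6a, Cct7 and Cct8) lay between -0.30 and -0.02, all named after their values were seen. Of 11 mitochondrial chaperones and proteases, 3 lay above 0 and 8 below (median -0.16), with 0 past 1.5-fold, Htra2 at -0.13 and Lonp1 at -0.21. Hspa9, the mitochondrial HSP70, was at -0.40 (named after its value was seen). Members and both lists together had 45 of 57 measured genes below the median of all genes. By definition 50% of all measured genes were below it, and 46.1% of those at or above the median level. The 57 genes were not limited to that level. These genes share regulators and are not independent, the lists were chosen with earlier results of these data known, and no test was made.

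**Figure D4:**
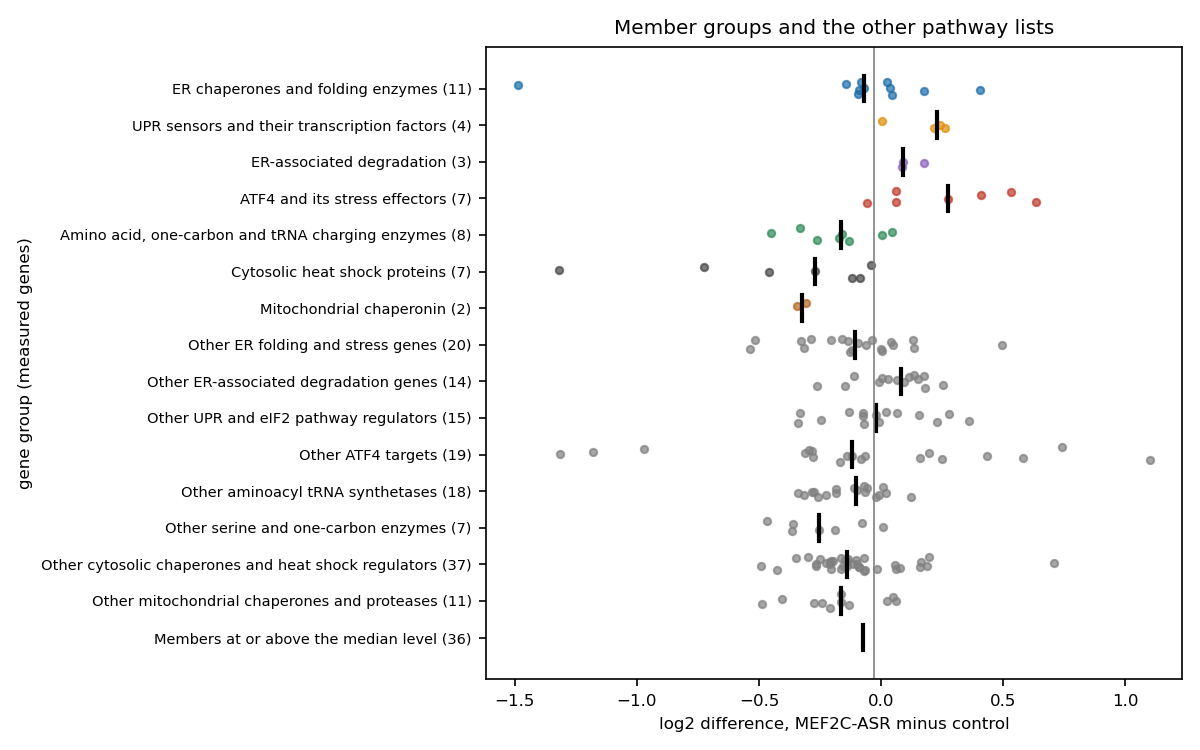
Log2 difference (MEF2C-ASR minus control) of each measured gene in the member groups (coloured) and the other pathway lists (grey); points are genes, black bars the medians, and the vertical line is the median of all measured genes (-0.03). Medians of the cytosolic (-0.27) and mitochondrial (-0.33) chaperone members lie left of the line, and those of the sensors (0.23) and ATF4 effectors (0.27) right of it. The median of the other ATF4 targets (-0.12) lies left of the line, and that of the other unfolded protein response and eIF2 regulators (-0.02) close to it.

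**Figure D5:**
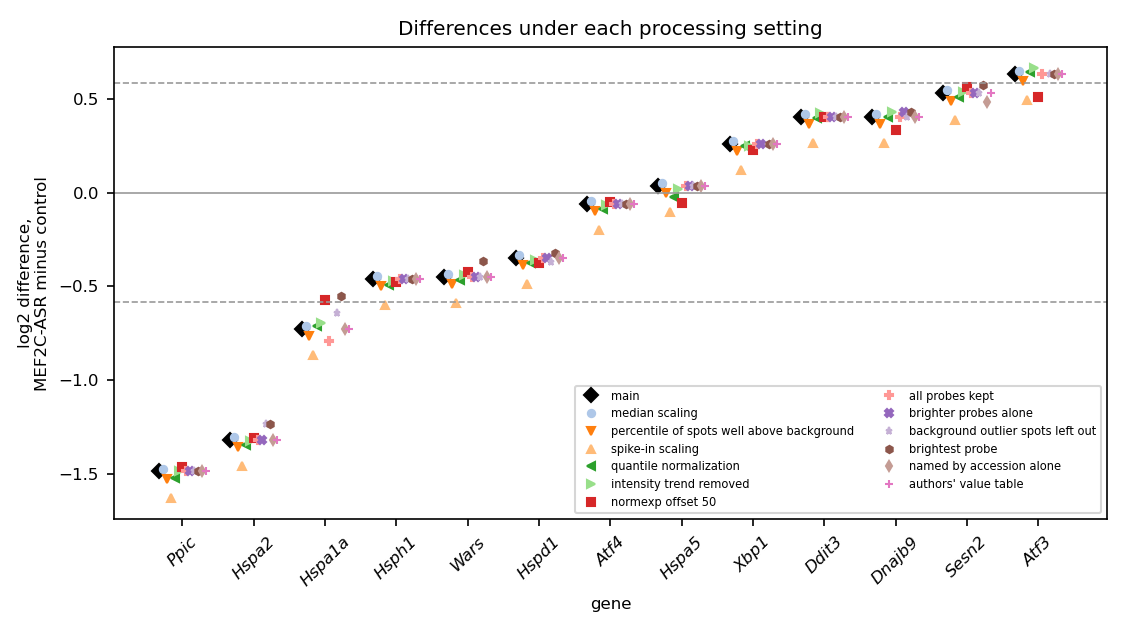
Log2 difference (MEF2C-ASR minus control) of 13 members under the main setting (black diamonds) and the 12 alternatives; dashed lines mark 1.5-fold. Ppic and Hspa2 stay below -1.2 in all settings, Hspa1a and Atf3 cross a dashed line, and Hspa5 changes sign. Hsph1 and Wars pass the lower dashed line with spike-in scaling only.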

How the data were processed

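RNA of the 2 cultures was measured on 1-colour Agilent arrays on the same slide. Per the file headers, the deposited values are linear spot intensity values from Feature Extraction 9.5.1.1, with background subtraction by spatial detrending, multiplicative detrending and surrogates for dim spots. Flags (a value of 0 or 1 per spot, other than intensity) were set by the same software, per the file headers. The deposited value table equalled these signals.

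Signals were taken to log2, each array's 75th percentile over non-control spots was subtracted, outlier spots (202 and 201) were left out, spots of a probe averaged, and measured probes averaged per gene. Of 41174 probes, RefSeq (GRCm38.p6) named 22882 through accessions, 6651 through symbols and 3108 through older symbols, 78 as members, and 8455 kept the file's name. A gene counted as past a fold only with all measured probes of the same sign. With 1 array per group no test was run, and the number of arrays limits the precision. Members, gene lists and alternatives were chosen with earlier results of these data known. Genes at least 1.5-fold apart were given with full values, as were Hspa5, Xbp1, Atf4, Ddit3 and the brightest and most different member of each role; in other lists up to 4 such genes, or the brightest 2 where none was. Steps were tested on simulated data. Tools were Python 3.11.15, pandas 2.3.3, and limma 3.58.1 for normexp (offset 50), where 7 control-array spots with a very high local background were left out.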

Additional observations from a re-analysis of the deposited data

How the results depend on the processing

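Each result was recomputed under 12 alternatives: 5 scalings, normexp, 2 probe filters, spot flags, the brightest probe, naming by accession, and the authors' value table. With spike-in scaling the medians were -0.19 for all members, -0.21 for ER chaperones, 0.087 for sensors, -0.054 for ER-associated degradation, 0.13 for ATF4 effectors, -0.31 for amino acid and tRNA enzymes, -0.41 for cytosolic heat shock proteins and -0.47 for the chaperonin, with 0 genes at least 1.5-fold higher and 5 lower (Hsph1 and Wars added). Normexp and the brighter probes alone also left 0 genes at least 1.5-fold higher. The other 120 values for groups and counts stayed within the spotting error of a single-spot difference (0.13), or within 1.5 times for counts. No paired analysis was possible because each group has 1 array. Low signals limit the precision of Hspa1a and Atf3.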

Other observations

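The motif letters searched in the members' promoters were also read against all measured genes, whatever their function. Of 37 genes with an ER stress response element in their RefSeq window, 19 were measured, with 6 above 0, 13 below and a median difference of -0.08 on the log2 scale. The ATF4 element was held by 325 measured genes, with 144 above 0, 181 below and a median of -0.03. The heat shock element was held by 60 measured genes, with 23 above 0, 37 below and a median of -0.04. The MEF2 site was held by 29 measured genes, with 17 above 0, 12 below and a median of 0.02. The second ER stress site was held by 9 measured genes, with 4 above 0, 5 below and a median of -0.16, and the unfolded protein response element by 113, with 47 above 0, 66 below and a median of -0.05. Of all 10757 measured genes with a window, 4804 were above 0 and 5953 below (55.3%), with a median of -0.03, beside which the ATF4 element's 181 of 325 (55.7%) is near the background. These are descriptions of letters and levels, with no test.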
